A study of Mus musculus with 15 samples.

Results

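The regions described here are the last 5 Mb of the 19 mouse autosomes, cut into windows of 40 kb and counted back from the distal tip of each of chromosomes 1 to 19. They comprise 2375 of the 68162 windows in the segregation table, and 2364 of them hold under 50% unknown bases in the reference and enter the comparisons. The rule that selects them uses position alone, although it was proposed with earlier results of these data known. The rest of chromosomes 1 to 19 holds 57499 windows that pass the same limit on unknown bases.

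The data come from genome architecture mapping (GAM), in which a thin cryosection is cut through fixed cells, a single slice of a nucleus (a nuclear profile) is isolated, and its DNA is amplified and sequenced. The 15 libraries hold 1 nuclear profile each from 46C mouse embryonic stem cells, a line of strain 129/Ola that carries GFP knocked into the Sox1 locus, grown in serum medium with LIF and moved to a serum-free clonal-grade medium 24 h before harvest. All 15 failed the quality control of the study and form 1 group, so no treatment or genotype was compared, and the question asked here was whether chromosome ends were captured differently from the rest of their chromosomes. By name, 7 libraries carry the prefix f13 and 8 the prefix f14, a difference that the sources used here do not explain. The labels list them as separate nuclear profiles and do not say that they came from separate cultures, so p-values measure the spread between these slices, and DNA presence marks no cell type, so the cell label was not checked.

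A window is called positive in a library when its DNA was found in that slice, and each call is 0 or 1. The number of reads behind a call is unknown, so no counting error can be given for a window. The libraries held between 14 and 2848 positive windows in all, with a median of 696, and 2 libraries (f13d5 and f14e1) held under 100.

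Mouse autosomes are telocentric, with the centromere at one tip, so the distal tip is the end that carries a long unique arm up to the telomere. Telomeres are capped by the shelterin proteins, and the subtelomere is the sequence next to them. In interphase nuclei several telomeres can lie close together, and in a thin slice such ends would be found jointly. Because a slice cuts through a chromosome as a stretch, positive windows in a GAM library of good quality tend to have positive neighbours.

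The distal tips of the assembly are shown first because they define the members: windows were counted backwards from these bases. The last 120 bases of 3 chromosomes are given 5′ to 3′ on the + strand of mm9 (NCBI Build 37), with each CpG in capitals, for the ends with the most calls (chromosomes 1 and 9) and for the end with the highest coverage relative to its chromosome (chromosome 16). No unknown bases followed the last known base at any of the 19 ends.
chr1:197195313-197195432: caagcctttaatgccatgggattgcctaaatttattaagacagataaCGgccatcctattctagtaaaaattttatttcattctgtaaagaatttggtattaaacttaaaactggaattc
chr9:124076053-124076172: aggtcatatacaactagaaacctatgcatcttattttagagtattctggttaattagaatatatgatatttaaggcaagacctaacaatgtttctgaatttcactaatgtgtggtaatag
chr16:98319031-98319150: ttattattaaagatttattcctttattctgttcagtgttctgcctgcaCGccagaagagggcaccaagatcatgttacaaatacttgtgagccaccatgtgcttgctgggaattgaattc

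The tips of chromosomes 1 and 16 held 1 CpG each in this stretch and that of chromosome 9 held 0.

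Also shown are the 250 bases before the start of a pair of genes that lie in distal windows positive in several libraries, Cldn14 and Traf3ip3, read on their own (minus) strand of mm9 with every CpG in capitals. Cldn14 encodes claudin-14, a protein of tight junctions, and Traf3ip3 encodes a protein that binds the adaptor TRAF3.
Cldn14, chr16:94009083-94009332: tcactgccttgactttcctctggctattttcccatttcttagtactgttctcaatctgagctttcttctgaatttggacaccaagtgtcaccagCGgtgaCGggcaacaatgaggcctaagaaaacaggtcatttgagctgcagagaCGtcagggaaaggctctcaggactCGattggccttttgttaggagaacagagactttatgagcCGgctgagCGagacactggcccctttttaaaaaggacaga
Traf3ip3, chr1:195027898-195028147: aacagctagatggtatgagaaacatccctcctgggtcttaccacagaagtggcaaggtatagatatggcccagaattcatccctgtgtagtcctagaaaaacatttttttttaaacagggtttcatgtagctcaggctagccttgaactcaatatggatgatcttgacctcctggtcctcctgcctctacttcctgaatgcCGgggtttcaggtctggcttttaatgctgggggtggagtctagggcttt

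The Cldn14 stretch held 6 CpG and the Traf3ip3 stretch 1, where the median over 21413 coding gene starts of chromosomes 1 to 19 was 9. At least as many CpG were held by 60.03% and 92.6% of those starts. Neither stretch was thus rich in CpG for a gene start.

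In mean coverage, the last 5 Mb were not found to differ from the rest of the autosomes. Coverage, the percentage of windows that were positive, ranged over libraries from 0.0846% to 6.18% in the distal windows, with a median of 1.23%, and from 0.0191% to 4.55% in the rest, with a median of 1.14%. The mean was 1.86% ± 1.86 at the ends and 1.63% ± 1.54 elsewhere (SD, n = 15 libraries). Libraries with many positive windows in the rest tended to have many at the ends too. The wide spread between libraries makes these values overlap, so ends and rest were compared within libraries.

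The difference between ends and rest was 0.232 percentage points ± 0.963 (SD, n = 15) with a median of 0.0655, and the ends were the higher in 10 of 15 libraries (exact two-sided sign-flip permutation test over libraries, p = 0.362). The 95% interval ran from a deficit of -0.304 to an excess of 0.765 percentage points. The mean fell to 0.113 without f13g3, 0.133 without f14f2 and 0.134 without f13a6, and rose to 0.362 without f13e1. Library f13g3 had the largest excess, with 146 positive distal windows (6.18%) against 4.28% in the rest. Library f13e1 had the largest deficit, with 70 positive distal windows (2.96%) against 4.55%. In proportion, f14g6 stood highest among libraries with more than 2 distal calls, at 1.23% against 0.513%. A mean difference between ends and rest was therefore not detected, and the interval leaves room for one of either sign. Within the f13 libraries the difference was 0.310 ± 1.17 (n = 7, exact p = 0.453) and within the f14 libraries 0.164 ± 0.820 (n = 8, exact p = 0.539).

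**Figure D1:**
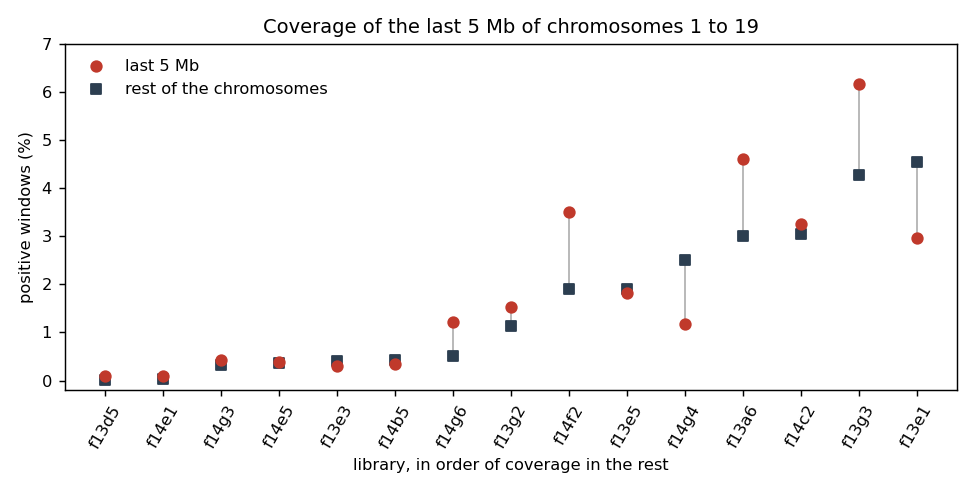
Percentage of windows positive in the last 5 Mb of chromosomes 1 to 19 (circles) and in the rest of the same chromosomes (squares), for each of the 15 libraries in order of coverage in the rest. The circle lies above the square in 10 libraries, with the largest excess in f13g3 (6.18% against 4.28%) and the largest deficit in f13e1 (2.96% against 4.55%).

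Coverage did not climb or fall steadily towards the tips. In steps of 1 Mb counted from the end, the mean over libraries was 1.84%, 1.75%, 1.99%, 2.01% and 1.69%, with standard errors between 0.452 and 0.687. In steps of 5 Mb, the last step had the highest mean of 11, at 1.86%, but the other 10 lay between 1.26% and 1.82%. Within libraries, the last step exceeded the other steps by means of 0.0387 to 0.595 percentage points, with SDs over libraries of 0.711 to 1.69, and it was the higher in 7 to 12 of 15 libraries. These differences were not tested, and the SDs describe the spread over libraries and not the error of a mean.

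**Figure D2:**
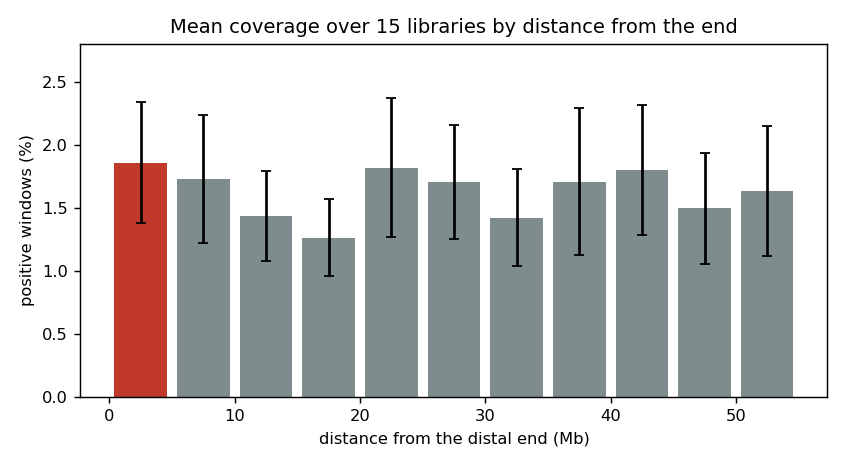
Mean percentage of positive windows over 15 libraries in steps of 5 Mb from the distal end, with bars of 1 standard error over libraries, which hold the differences in coverage between libraries and do not serve to compare steps. The last 5 Mb (red) reach 1.86%, the highest of the 11 steps, and the other steps lie between 1.26% and 1.82%.

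The very last window of each chromosome is shorter than 40 kb, from 3.856 to 39.783 kb. Of the 285 combinations of library and last window, 1 was positive (0.351%), and it was on chromosome 3. The 4 windows before it on each chromosome had 12 calls (1.05%). The last windows of chromosomes 1, 9 and 16, whose tips are printed above, were positive in 0 libraries. The shorter length of these windows moves with their low coverage, and its part in it was not tested.

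A difference in coverage between the opposite ends of the chromosomes was not detected. The first 5 Mb of assembled windows of each autosome had a mean coverage of 2.13% ± 2.29 (SD, n = 15). The distal windows were lower by a mean of -0.272 percentage points ± 2.05, being higher in 7 libraries and lower in 8 (exact sign-flip permutation test, p = 0.619, 95% interval -1.40 to 0.861). The direction rested on f13e1, and without it the difference was 0.0233 (exact p = 0.957). The interval is wide for means of this size and leaves room for a difference of either sign.

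The distal windows differed in sequence from the rest. Their GC content was 43.8% ± 4.70 against 41.9% ± 4.03 (SD over windows), and CpG density was 9.66 against 8.46 per kb. Among the ends, mean GC content ran from 37.5% on chromosome 17 to 50.01% on chromosome 4. The autosomal decile richest in GC took in 23.1% of the distal windows. With the coverage of the rest standardised to the GC content of the distal windows, the difference was 0.247 percentage points (exact sign-flip permutation p = 0.333). Without this step it was 0.232. CpG density was not standardised, and the part of base composition in the difference was not tested.

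Taken chromosome by chromosome, distal calls were unevenly spread. The end of chromosome 9 had the most calls, 68, in 7 libraries, with 30 of them in f14c2, 12 in f13a6, 12 in f13e1, 8 in f13g3, 4 in f13e3, and 1 each in f13e5 and f14b5. The end of chromosome 1 followed with 62 calls in 6 libraries, of which 26 were in f14c2 and 14 in f13g3. At the other extreme, the end of chromosome 15 had 3 calls, 1 each in f13e5, f13g3 and f14g3. The end of chromosome 7 had 5 calls, 4 in f13g3 and 1 in f14b5. High and low ends alike rested on few slices.

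**Figure D3:**
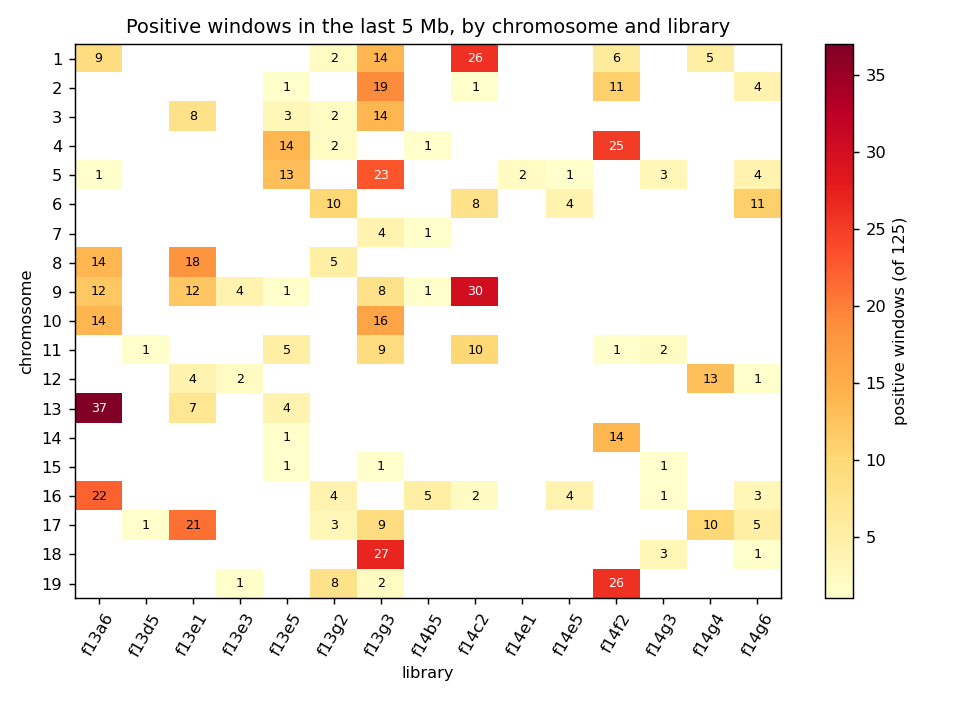
Number of positive windows in the last 5 Mb of each autosome (vertical axis) in each library (horizontal axis); blank cells hold 0. Filled cells number 82 of 285, and the 10 fullest, led by the 37 windows of chromosome 13 in f13a6, hold 38.8% of all distal calls.

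The 659 distal calls fell into 82 of the 285 combinations of library and chromosome end. The 10 largest combinations held 256 calls (38.8%). A single window was found in 19 combinations and at least 10 windows in 27. The fullest was the end of chromosome 13 in f13a6, with 37 positive windows, whereas only f13e1 with 7 and f13e5 with 4 had any other call there. On chromosome 18, f13g3 held 27 of 31 distal calls, and on chromosome 14, f14f2 held 14 of 15.

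Relative to its own chromosome, the end of chromosome 16 had the largest excess in proportion, with a mean coverage of 2.24% against 0.898%. It was higher in 7 of 15 libraries, and its calls numbered 22 in f13a6, 5 in f14b5, 4 in f13g2, 4 in f14e5, 3 in f14g6, 2 in f14c2 and 1 in f14g3 (exact sign-flip permutation p = 0.104, adjusted p = 0.753 over all blocks). On chromosome 9 the means were 3.63% and 2.04%, on chromosome 1 they were 3.31% and 1.76%, and on chromosome 17 they were 2.61% and 1.40%. Chromosome 15 showed the lowest value, 0.16% against 1.09%, and also the smallest p among the distal blocks (exact permutation p = 0.0508, adjusted p = 0.506). The high and low ends were thus set apart by few slices each, and none passed the threshold.

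These values were read against all blocks of 5 Mb tiled from the distal ends, each tested against the rest of its chromosome by the same exact sign-flip permutation test with Benjamini-Hochberg adjustment. Of 478 blocks, 11 were called at an adjusted p under 0.05 (2.3%), all lower than the rest and each with positive windows in at most 3 libraries. This count depended on the block length, with 121 of 1196 blocks called at 2 Mb and 0 of 241 at 10 Mb, and it was 7 of 478 without the 2 libraries under 100 positive windows. At an unadjusted p under 0.05, 0 blocks were higher (0.0%) and 46 were lower (9.62%). Of the 19 distal blocks, 0 were called at either level. Since no block of any position was called higher at either level, the lack of high calls at the ends says nothing about them. Low calls at the adjusted level were limited too, because libraries without calls on a chromosome add nothing to its tests. A block of chromosome 10 with 0 positive windows in any library was not called (exact sign-flip permutation p = 0.0039, adjusted p = 0.0889). The lack of low calls at the ends at that level was therefore not read as a result. The distal block was above the rest of its chromosome for 10 of 19 ends (52.6%), against 210 of 459 other blocks (45.8%).

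Distal windows were not found to differ from others in how often they had positive neighbours. The interval below leaves room for a lower share at the ends. The neighbour proportion, the share of positive windows with at least 1 positive adjacent window, was compared in the 13 libraries with at least 5 positive distal windows. At the ends it ran from 0 to 0.723 (f14f2), and in the rest from 0.0456 (f14b5) to 0.694 (f14f2). The mean was 0.302 ± 0.267 at the ends and 0.343 ± 0.221 in the rest (SD, n = 13), a difference of -0.0403 ± 0.0847 with 5 libraries higher and 8 lower (exact sign-flip permutation p = 0.112, 95% interval -0.0921 to 0.0114). The value was 0 at the ends in f13e3, f14b5, f14e5 and f14g3, which had between 7 and 10 distal calls each. Pooled over all 15 libraries, 307 of the 659 distal calls had a positive neighbour, a proportion of 0.466, and that of the rest was 0.479. Without f13a6, in which the ends were higher (0.569 against 0.458), the difference was -0.0529 and passed the threshold (exact permutation p = 0.0337), so this call depends on 1 library.

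The distal calls formed 469 runs of adjacent windows, of which 352 were single windows and 8 had at least 5 windows. The mean run length was 1.41 windows at the ends and 1.42 in the rest. The longest distal run spanned 8 windows, 320 kb, in f14f2 at chr14:120880001-121200000. Next was a run of 7 windows in f13a6 at chr13:116840001-117120000. Runs of 6 windows lay at chr17:91720001-91960000 in f13e1 and at chr4:153920001-154160000 in f14f2. Runs of this length were thus rare, and most distal calls stood alone or in short runs.

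For the number of ends found per slice, an end was counted as detected when at least 1 of its windows was positive. The reference was the mean over every rotation of the same library's track along each chromosome, which keeps the number of calls and their clustering and moves only their position. The number of ends detected per library ran from 1 to 12 of 19, with a mean of 5.47 ± 2.92 (SD, n = 15), and the rotation means averaged 5.08 ± 2.64. The difference was 0.384 ends ± 1.80, with 8 libraries higher and 7 lower (exact sign-flip permutation p = 0.417, 95% interval -0.608 to 1.39). It was 0.0439 when an end needed 2 adjacent positive windows and 0.0330 with the last 10 Mb. Libraries with at least 2 ends numbered 14 and those with at least 5 ends numbered 9. The mean difference adds up single ends, so it cannot tell whether ends were found jointly. The spread of the differences between slices was not tested against rotations.

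The largest excesses were 7 ends against 3.76 in f14g6, 12 against 9.01 in f13g3 and 6 against 3.24 in f14f2. The largest deficits were 4 ends against 6.62 in f14b5, 6 against 7.69 in f13e1 and 3 against 4.62 in f14g4. Summed over libraries, 82 detections compared with 76.2 over rotations. Excesses and deficits thus occurred with both prefixes, and each excess listed was larger than the largest deficit.

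**Figure D4:**
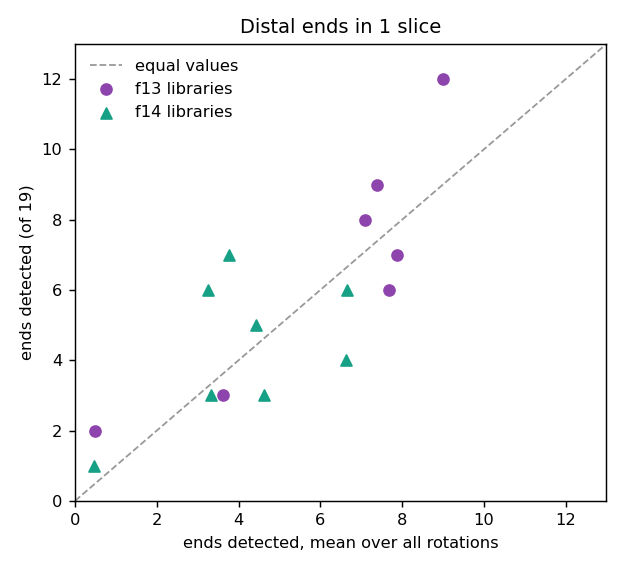
Number of distal ends with at least 1 positive window in each library (vertical axis, of 19) against the mean number over all rotations of the same tracks (horizontal axis), with circles for f13 and triangles for f14 libraries and a dashed line at equal values. The points lie on both sides of the line, 8 above and 7 below.

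Pairs of ends in the same slice were counted next. The number of pairs in a library follows from its number of ends, so the pairs are not separate evidence. In total, 243 pairs were found in the same slice, against 223.8 over rotations. Per library the difference was 1.28 pairs ± 11.2 with a median of -0.0837, 7 libraries being higher and 8 lower (exact sign-flip permutation p = 0.673, 95% interval -4.74 to 7.54). The sign rested on f13g3, which had 66 pairs against 37.9, and without it the difference was -0.632 (exact permutation p = 0.787). An excess of pairs over the rotation means was not detected with these 15 slices.

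Of the 171 possible pairs of ends, 144 were found jointly in at least 1 library, 74 in at least 2, 22 in at least 3 and 3 in 4. The ends of chromosomes 2 and 11 were found jointly in f13e5, f13g3, f14c2 and f14f2, where rotation gave a mean of 1.76 libraries. The ends of chromosomes 5 and 16 were found jointly in f13a6, f14e5, f14g3 and f14g6 (rotation mean 1.44). The ends of chromosomes 6 and 16 were found jointly in f13g2, f14c2, f14e5 and f14g6 (rotation mean 1.47). These pairs are the highest of 171 and carry no test.

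Single distal windows were seldom found in more than 1 slice. At least 1 library was positive in 587 distal windows (24.8%), against 21.9% of the windows in the rest. At least 2 libraries were positive in 66 (2.79%), where the background over all assembled autosomal windows was 2.34%. At least 3 libraries were positive in 5 distal windows (0.212%), against a background of 0.144%. The shares of the distal windows thus lay close to the background.

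Of the 5 windows found in at least 3 libraries, 3 lie on chromosome 16. The window at chr16:94000001-94040000 was positive in f13a6, f13g2, f14b5 and f14e5, the only distal window found in 4 libraries. It lies 4280 kb from the end and holds the start of Cldn14 (gene at chr16:93919276-94009082), an exon included. The window at chr16:93960001-94000000, positive in f13a6, f13g2 and f14g6, lies within Cldn14 and holds no exon of it. The window at chr16:93840001-93880000, positive in f14b5, f14c2 and f14e5, holds exons of Morc3, which encodes a nuclear ATPase of the MORC family. Both f14b5 and f14e5 are sparse libraries, with 8 and 9 distal calls, and they shared 2 windows, 25% and 22.2% of these.

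From the first to the last of these 3 windows, the stretch chr16:93840001-94040000 spans 5 windows and held 13 of the 41 calls at the end of chromosome 16, in 6 libraries. It holds 3 coding genes, Morc3, Cldn14 and Chaf1b, which encodes a subunit of the chromatin assembly factor that places histones on new DNA. This stretch was delimited after its values were seen and carries no test.

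**Figure D5:**
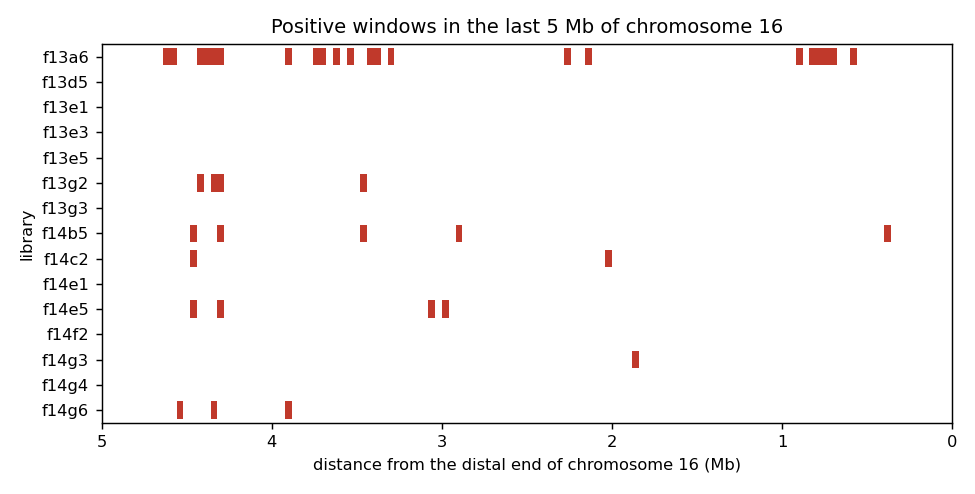
Positive windows (red marks, 40 kb each) in the last 5 Mb of chromosome 16, by distance from the distal end in Mb (horizontal axis) and by library (vertical axis). Marks of 6 libraries line up between 4 and 5 Mb from the end, where the Cldn14 and Morc3 windows lie, whereas the last 1 Mb holds calls of f13a6 and f14b5 only.

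The other distal windows found in 3 libraries lie on chromosomes 1 and 9. The window chr1:195000001-195040000, positive in f13g2, f13g3 and f14c2, is 2160 kb from the end and holds exons of Traf3ip3, whose upstream bases are printed above, of A130010J15Rik and of 3 noncoding transcripts. The window chr9:119120001-119160000, positive in f13a6, f13e1 and f14c2, is 4920 kb from the end and holds exons of Oxsr1, a kinase that regulates ion cotransporters, and of Slc22a13b, annotated as a polymorphic pseudogene. In GC content the 5 windows ranged from 42.9% to 48.1%, near the distal mean.

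The ends are rich in genes. The annotation places 1147 coding genes in the distal windows, or 12.2 per Mb, against 8.82 per Mb in the rest. A positive window in at least 1 library lay over 352 of them (30.7%), where the background over all coding genes of chromosomes 1 to 19 was 32.0%. In at least 2 libraries the share was 7.32% at the ends and 6.43% in the rest. These shares lay close together and were not tested. A gene that spans more windows can be covered more easily, and gene length was not matched.

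Landmark genes of the distal regions were looked up group by group, with 1 group left out, so no total over the list is given. Neighbours in a cluster share windows, so these genes are not independent. The imprinted domain of distal chromosome 7, which holds the growth factor gene Igf2 and the noncoding RNA H19, had 0 of 11 genes covered in any library. The Hoxc cluster of body-patterning genes on chromosome 15 had 0 of 9. Both clusters lie at the ends with the fewest calls, and each is in effect 1 stretch of the genome, so these counts are not set against the 32.0% of all coding genes.

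Of the FGF and cyclin genes next to the imprinted domain, 1 of 4 was covered, Ccnd1, which encodes cyclin D1, in f14b5. Of 18 other genes, developmental regulators and the telomere helicase gene Rtel1, 3 were covered. The share over all coding genes was 32.0%, and the difference was not tested. Covered were Isl1, a LIM-homeodomain factor, in f13a6 and Ctnnb1, which encodes beta-catenin, in f13a6 and f13e3. Prdm16, a zinc-finger factor of brown fat, was covered in f13g2 and f14f2.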

How the data were processed

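The authors deposited 1 segregation table of presence calls (1 or 0, a call and not a count) for 40 kb windows of mm9 in 15 libraries of 1 nuclear profile each. Per the labels, Bowtie2 2.1 was among the tools used. The study's methods describe duplicate removal with Samtools and window calling with GAMtools, and whether these settings apply to the libraries used here was not stated. A read threshold hides depth, so the depth behind a call is unknown and the number of libraries limits precision. All 15 columns were mapped by library name, each to 1 sample.

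The members, gene lists and tests were chosen with earlier results of these data known. Windows with under 50% unknown bases in NCBI Build 37 were kept. Differences were tested over libraries by exact two-sided sign-flip permutation, for which the smallest possible p with 15 libraries is 6.1e-05, and 95% intervals invert that test. For a block, the smallest possible p is larger where some libraries had no call on its chromosome. Rotation means were enumerated over every rotation of each chromosome's track, with no random draws. Named windows were those positive in at least 3 libraries, up to 10, and named genes came from a list of landmarks in the last 5 Mb. Some items, among them 1 group of landmark genes and some end sequences, are not reported here. Gene positions came from the GENCODE annotation of the same build, whose chromosome lengths equal the table's ends. The scripts were tested on simulated data. Alternatives covered the windows counted, the length of the distal stretch, the scale, base composition, the definition of a detected end and the libraries included. Python 3.11.15, numpy 2.4.6, pandas 2.3.3, scipy 1.17.1 and matplotlib 3.10.9 were used.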

Additional observations from a re-analysis of the deposited data

How the results depend on the processing

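The distal coverage difference (27 alternatives) and the number of ends detected (24) kept their direction and stayed short of the threshold in each, though ends detected came down to 0.0330 with the last 10 Mb and 0.0439 with 2 adjacent windows per end, as did 20 of 21 alternatives for the neighbour proportion, 19 of 22 for pairs of ends and 21 of 22 for the comparison with the proximal ends. Leaving out each library in turn gave 0.113 to 0.362 percentage points for distal coverage, 0.180 to 0.598 for ends detected, -0.0529 to -0.0284 for the neighbour proportion, -0.632 to 2.41 for pairs and -0.570 to 0.0233 for the proximal comparison. The neighbour proportion passed the threshold only without f13a6 (exact permutation p = 0.0337), and over its other alternatives p ran from 0.0596 to 0.467. The pairs difference turned to -0.977 with the last 10 Mb and to -0.238 in the f14 libraries alone, and the cause was not tested. The count of blocks called was 121 of 1196 with blocks of 2 Mb, 0 of 241 with blocks of 10 Mb, 8 of 494 with all windows counted and 7 of 478 without the libraries under 100 positive windows, against 11 of 478, and the cause was not tested. Leaving out those libraries was chosen after seeing the data for all but the coverage and block results. Each test compared regions within a library, and libraries were not paired with each other. The libraries are few and sparse and their depth is unknown, which limits the size of difference that can be told from the spread between slices.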

Other observations

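The prefix of the library name was compared for 5 measures: distal coverage minus rest, neighbour proportion minus rest, ends and pairs of ends detected minus their rotation means, and distal minus proximal coverage. The adjusted p of the exact permutation test between f13 and f14 libraries was 0.832 for each of the 5, with unadjusted p between 0.595 and 0.832. The most distal windows shared by any pair of libraries was 7, between f13g3 and f14c2, the first of which also had the most distal calls.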
